A study of Mus musculus with 30 samples.

Results

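The genes described here are 35 genes of cell proliferation and mitosis, found as the rows of the deposited count table whose symbol in the GENCODE mouse annotation is one of 35 chosen symbols. All 35 were present among 55487 genes, and all 35 had enough counts to be tested in both cohorts of the study. The study measured RNA in 30 mouse hearts collected 8 weeks after transverse aortic constriction (TAC) or sham surgery. TAC narrows the aorta with a clip, of 0.016 or 0.018 inch here, and raises the pressure against which the left ventricle works. The question of the design was what Cpt1a, which encodes the liver isoform of carnitine palmitoyltransferase 1, which lets long-chain fatty acids enter mitochondria for oxidation, does in a heart under pressure overload. The first cohort held mice of genotype CPT1a floxed after sham surgery (FF_sham) or TAC (FF_TAC), and mice with a cardiac specific CPT1a knockout after sham surgery (KO_sham) or TAC (KO_TAC), with 4 libraries in each group. The floxed mice carry the allele that is deleted in the knockouts, so no group of this cohort is wild type, and what drives the deletion is not given in the sources used here. The second cohort held C57Bl/6 mice given saline (PBS_sham and PBS_TAC, 3 libraries each) or the vector AAV9.cTNTN.Cpt1a, described as cardiac-specific overexpression (AAV_sham and AAV_TAC, 4 libraries each). Ages are not given. No label ties a library to a particular animal, so p-values measure the spread between these libraries only.

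A dividing cell passes through G1, copies its DNA in S phase and separates the copies in mitosis. E2F factors switch on the S phase genes, whose products include the MCM helicase, the sliding clamp PCNA and the enzymes that make deoxynucleotides. Cyclins A and B with CDK1, and the factor FOXM1, drive entry into mitosis, where Aurora and Polo kinases, kinesins and kinetochore proteins build the spindle. The spindle checkpoint then holds the anaphase-promoting complex back until every chromosome is attached. In the adult mouse heart cardiomyocytes rarely divide, while fibroblasts, endothelial cells and macrophages can, and pressure overload is known for expansion of non-muscle cells and for growth of cardiomyocytes without division. In RNA from a whole heart, fewer cells of a type and less RNA per cell cannot be told apart, and neither can the cell type in which a transcript was made.

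Several features of the libraries bear on all results. Cpt1a itself did not separate the labelled genotypes in every library: the library labelled KO_sham 2 had 46.6 CPM (counts relative to the library total), a level like that of FF_sham (38.7 to 53.7 CPM). Those labelled FF_TAC 2 and FF_TAC 3 had 20.7 and 16.5 CPM beside a KO_TAC range of 11.3 to 19.9. The same 3 libraries and all 4 KO_TAC libraries had almost no haemoglobin transcripts (at most 51.1 CPM, against at least 293.9 CPM in each of the other libraries), so that in KO_TAC low haemoglobin and the group cannot be told apart. These 7 are called the haemoglobin-low libraries. They also stood apart in the summed level of 12 early response genes, at 2289 to 5669 CPM against 177.9 to 254.4 CPM in the other 9 libraries of the cohort. The values of the 3 libraries go against their labels, and whether labels were exchanged was not tested, so they are named as labelled. In the second cohort Cpt1a was 0.45 higher on the log2 scale in AAV_sham than in PBS_sham (SE 0.22, adjusted p = 0.25) and 0.05 higher in AAV_TAC than in PBS_TAC (SE 0.21, adjusted p = 1), so the labelled overexpression did not pass the test in either comparison. PBS_sham 3 stood apart, with a summed level of 10 cardiomyocyte genes of 26470 CPM while the other groups and libraries lay between 55270 and 80900 CPM. Total counts ran from 14839758 to 22070373 per library, and none of 42 pairs of libraries within a group looked like a duplicate.

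Most of the 35 genes were scarce, as is usual for such transcripts in the adult heart. The mean over all 30 libraries was under 1 CPM for 8 genes, between 1 and 5 CPM for 21 and above 5 CPM for 6. In counts, the means ran from 8.13 for Bub1, a kinase of the spindle checkpoint, to 663.5 for Pcna. Per kilobase of exon, Pcna led at 15.5 CPM, followed by the helicase subunits Mcm3 at 2.16 and Mcm6 at 2.03, then Cenpf at 1.23, Mcm2 at 1.19 and Mcm5 at 1.16. Mki67, the gene of the Ki-67 antigen, stood at 0.59 CPM per kilobase, Top2a, the topoisomerase that untangles replicated DNA, at 0.40, and the kinetochore motor gene Cenpe was the lowest at 0.10. No count was found for Bub1 in FF_TAC 1 and KO_TAC 2 or for Ccnb1, cyclin B1, in KO_TAC 2, which allows up to 3 counts, or 0.167 CPM in the former library and 0.202 CPM in the latter. Such limits cover counting error only, since PCR copies are not independent molecules. The counts of 9 genes are uncertain because another gene has exons over theirs on the other strand, and the strand setting of the counting is not stated: Ccne2 (with Ints8), Ccna2 (Exosc9), Cdc20 (Elovl1), Ube2c (Tnnc2), Plk1 (Gm44985), Cdca8 (9930104L06Rik), Kif20a (Cdc23), Prc1 (Rccd1) and Nusap1 (Oip5). Those of Pcna, Tyms, Ccnb1 and Ccnb2 are uncertain because annotated pseudogenes carry their names. On the same strand, Top2a overlaps Gm23451, and Foxm1 overlaps Gm44596 and Tex52.

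The genes also differed in how far they varied between hearts. Over 30 libraries the coefficient of variation was 14.7% for Mcm6, 16.4% for Mcm3, 20.0% for the cyclin E2 gene Ccne2 and 23.8% for Pcna. It was 88.2% for Ccnb1, 78.0% for Cenpf, 73.8% for Ube2c, 73.2% for Rrm2 and 73.1% for Bub1. Cenpf, which encodes a large protein of the kinetochore and the nuclear envelope, spanned a 45.9-fold range, from 1.29 CPM in KO_TAC 2 to 59.3 CPM in FF_sham 1. The steadiest genes thus act at or before replication, and 4 of the 5 most variable act in mitosis or at its entry. The part of low counts in this order was not tested.

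**Figure D1:**
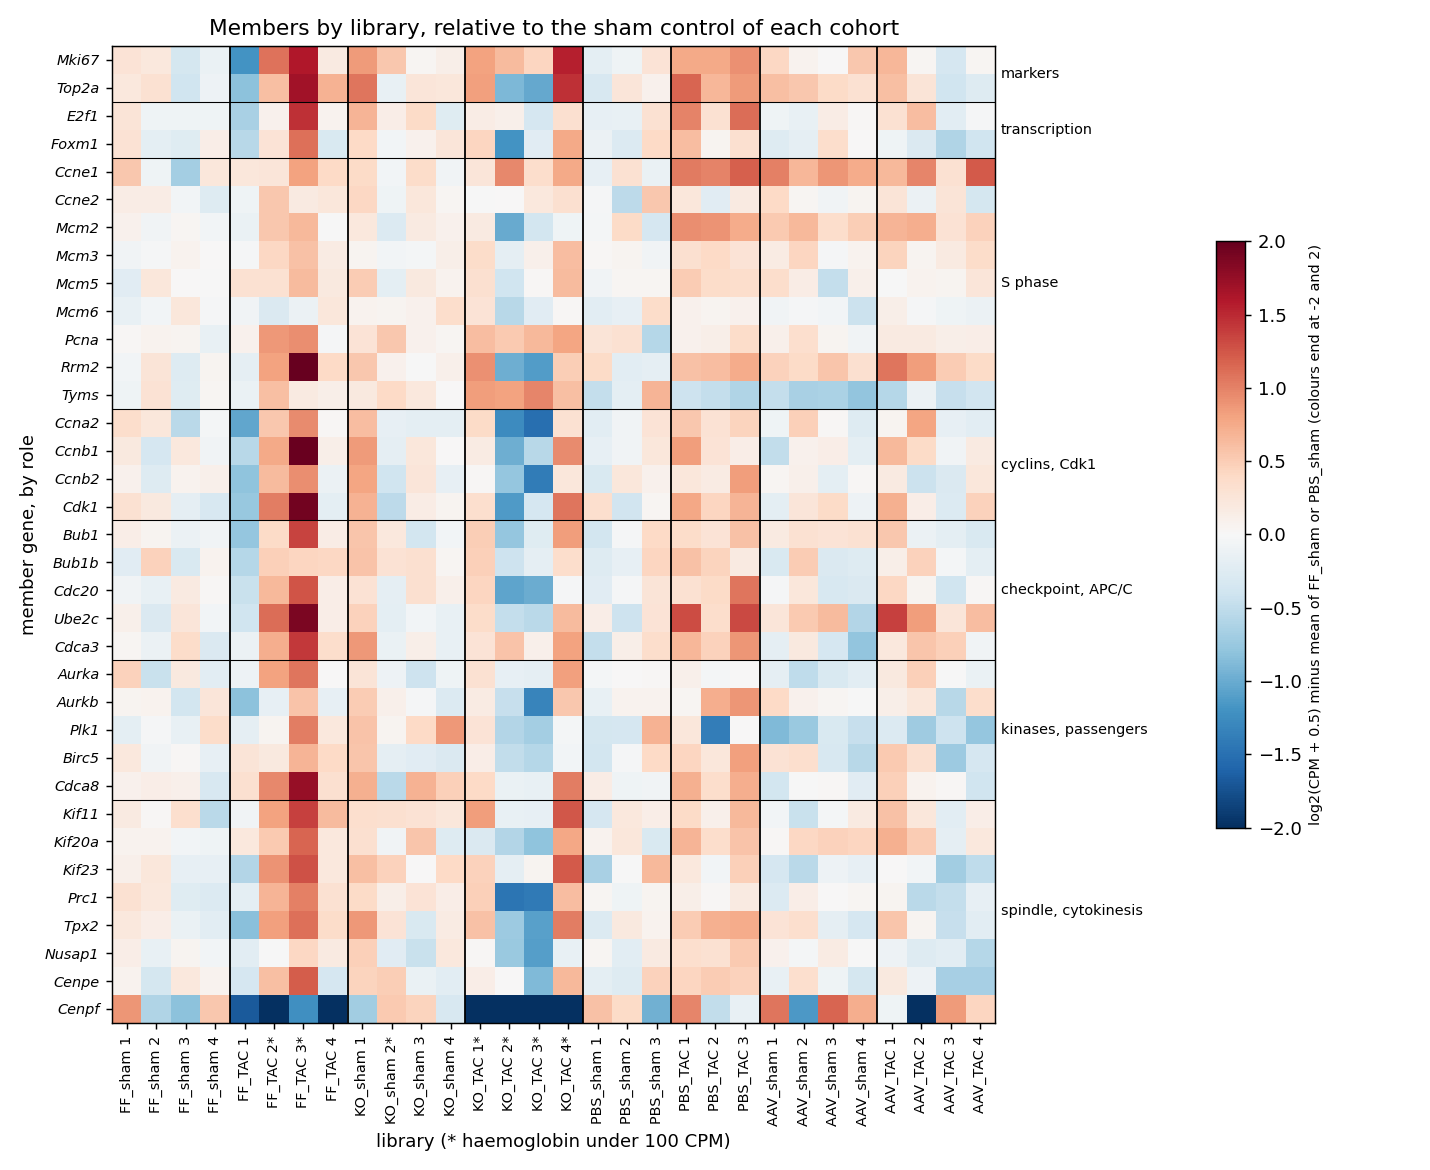
Heat map of the 35 genes (rows, ordered by role) in 30 libraries (columns, by group). Colour gives log2(CPM + 0.5) minus the mean of FF_sham for the first cohort or of PBS_sham for the second. FF_TAC 3 is high for most rows, KO_TAC 2 and KO_TAC 3 are low for most late cell cycle rows, and the Cenpf row is low in all FF_TAC and KO_TAC libraries.

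Genes of G2 and mitosis are known for a shared promoter layout, a CCAAT box bound by NF-Y upstream of a cell cycle homology region (CHR), whose letters here are TTTGAA. S phase genes more often carry E2F elements, searched here as TTGGCGC or TTCCCGC. RefSeq promoter windows, from 250 bases before to 50 bases after a transcript start (GRCm38.p6), were found for 29 of the 35 genes, and not for Ccne2, Foxm1, Aurkb, Tpx2, Kif20a and Ccna2. The following stretches, from 200 bases before to 10 bases after the start, are shown because they belong to the genes the results turn on, with 3 contrasting layouts: several CCAAT boxes with a CHR (Mki67, Top2a, Ccnb2, Cenpf), a CHR far from its CCAAT box (Mcm2), and none of the motifs (Tyms). All 6 genes lie on the minus strand, and the stretches are at chr7:135716370-135716579 (Mki67), chr11:99024180-99024389 (Top2a), chr9:70421545-70421754 (Ccnb2), chr1:189688077-189688286 (Cenpf), chr6:88898771-88898980 (Mcm2) and chr5:30073616-30073825 (Tyms). They are written 5′ to 3′ with matches to any of the motifs, on either strand, in capitals.
Mki67: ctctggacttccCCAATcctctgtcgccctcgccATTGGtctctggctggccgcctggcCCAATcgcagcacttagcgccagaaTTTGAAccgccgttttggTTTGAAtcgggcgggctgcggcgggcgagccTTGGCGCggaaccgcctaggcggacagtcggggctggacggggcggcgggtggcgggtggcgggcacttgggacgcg
Top2a: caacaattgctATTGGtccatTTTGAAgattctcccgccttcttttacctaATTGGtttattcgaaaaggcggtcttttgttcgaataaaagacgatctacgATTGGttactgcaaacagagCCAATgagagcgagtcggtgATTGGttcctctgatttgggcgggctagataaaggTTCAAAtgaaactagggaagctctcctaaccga
Ccnb2: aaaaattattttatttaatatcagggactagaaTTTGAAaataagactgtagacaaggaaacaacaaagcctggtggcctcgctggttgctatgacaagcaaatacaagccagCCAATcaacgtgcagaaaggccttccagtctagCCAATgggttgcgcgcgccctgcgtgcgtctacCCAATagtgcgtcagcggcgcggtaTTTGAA
Cenpf: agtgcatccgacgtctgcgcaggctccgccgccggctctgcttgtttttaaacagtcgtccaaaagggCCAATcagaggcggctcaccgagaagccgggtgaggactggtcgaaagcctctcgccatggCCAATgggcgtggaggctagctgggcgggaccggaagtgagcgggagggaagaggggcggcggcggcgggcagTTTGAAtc
Mcm2: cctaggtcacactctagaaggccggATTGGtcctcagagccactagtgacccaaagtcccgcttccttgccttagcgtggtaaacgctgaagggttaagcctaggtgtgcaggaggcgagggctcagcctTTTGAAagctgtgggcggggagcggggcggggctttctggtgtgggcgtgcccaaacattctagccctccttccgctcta
Tyms: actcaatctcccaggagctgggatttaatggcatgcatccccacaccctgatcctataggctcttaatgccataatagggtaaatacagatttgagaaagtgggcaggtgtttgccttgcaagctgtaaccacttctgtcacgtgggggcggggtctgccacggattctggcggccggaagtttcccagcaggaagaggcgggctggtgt

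In these stretches the Cenpf CHR began at base 3 after the start, with CCAAT boxes beginning 132 and 71 bases before it. Ccnb2 had a CHR beginning at base 5 after the start behind CCAAT boxes at 87, 54 and 21 bases before it. Top2a had CHR matches 179 and 23 bases upstream and Mki67 had matches 116 and 98 bases upstream, with an E2F element at 67. Across the 29 windows, both strands searched, 16 (55.2%) held a CHR, while 17.9% of all 32851 promoter windows of the same length did. The CHR was present for 15 of 21 genes outside S phase (71.4%) and 1 of 8 S phase genes (12.5%). CCAAT boxes occurred in 24 of 29 (82.8%, against 37.4% of all windows) and E2F elements in 6 of 29 (20.7%, against 6.81%). E2f1, Ccne1, Tyms, Birc5 and Nusap1 held none of them in this window. Matches overlapped each other in 4 places. A match is a description of letters, not evidence of binding in these hearts.

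**Figure D2:**
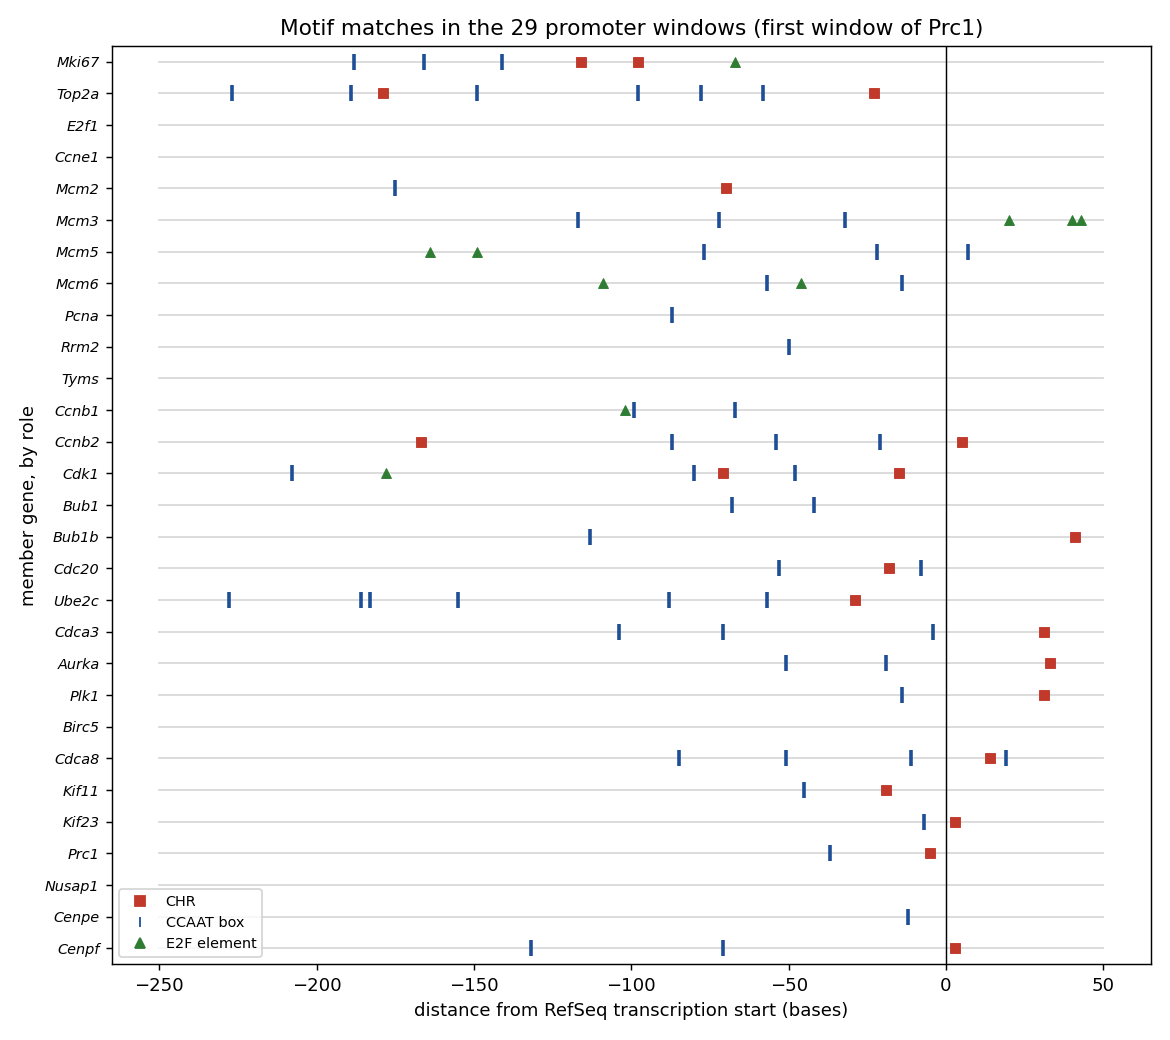
Positions of CHR, CCAAT box and E2F matches (symbols) in the promoter windows of 29 genes (rows), against the distance in bases from the RefSeq transcript start. CHR matches lie in 15 rows outside S phase and in a single S phase row, Mcm2.

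The first comparison was between TAC and sham in floxed mice without the knockout. The point estimates were above 0 for 32 of the 35 genes, with a median log2 fold change of 0.57, while the median of all tested genes was -0.01. None of the 35 genes passed the test of edgeR (adjusted p under 0.05), and 0% of all 15596 tested genes did. At an unadjusted p under 0.05, 6 of the genes were higher (6.64% of all genes) and 1 lower (4.41% of all genes). DESeq2 called 1 of the genes, Cenpf, among 168 of all genes.

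The proliferation marker Mki67 shows what lies behind these values. It had 5.25, 5.04, 3.25 and 3.85 CPM in FF_sham and 1.58, 9.68, 13.9 and 4.88 CPM in FF_TAC (log2 fold change 0.79, SE 0.47, edgeR adjusted p = 0.53). FF_TAC thus held both a library below every sham library and libraries above all of them. Top2a gave the same picture, with 3.19, 3.42, 1.91 and 2.46 CPM in FF_sham and 1.30, 4.35, 9.68 and 4.66 CPM in FF_TAC. FF_TAC 3 was the highest library of its cohort for 27 of the 35 genes and FF_TAC 1 the lowest for 5.

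Among S phase genes, Rrm2, the inducible small subunit of ribonucleotide reductase, reached 13.2 CPM in the library labelled FF_TAC 3, and had 1.86, 4.17 and 3.01 CPM in the other FF_TAC libraries and 1.74 to 2.69 CPM in FF_sham. Of the cyclin and CDK genes, Ccnb1 had the highest log2 fold change, 1.39 (SE 0.84, adjusted p = 0.54), and Cdk1 stood at 4.87 CPM in FF_TAC 3 beside 0.34, 2.39 and 0.74 CPM in the other FF_TAC libraries. All 5 genes of the checkpoint and the anaphase-promoting complex had positive estimates, including Ube2c, the ubiquitin-conjugating enzyme of that complex, at 1.19 (SE 0.52, adjusted p = 0.43). Only 3 genes had groups that did not overlap. Cdca8 (borealin, of the chromosomal passenger complex) and the cytokinesis kinesin Kif20a were higher in every FF_TAC library (2.94% of all genes), and Cenpf was lower in every FF_TAC library (3.15% of all genes). For Cdca8, FF_sham had 0.75, 0.78, 0.75 and 0.44 CPM and FF_TAC 0.96, 1.78, 3.43 and 0.97 CPM. Its log2 fold change was 1.37 (SE 0.52, adjusted p = 0.39). The counts of Cdca8 and Kif20a are among the uncertain ones.

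Without FF_TAC 3 the median over the 35 genes was 0.28, and in a fit without the 3 haemoglobin-low libraries labelled FF_TAC 2, FF_TAC 3 and KO_sham 2 it was -0.05, with 15 genes above and 20 below 0. In that fit Mki67 had a log2 fold change of -0.43 and Ccnb1 of -0.43. KO_sham 2 is in neither group compared, so the positive median rested on FF_TAC 2 and FF_TAC 3.

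**Figure D3:**
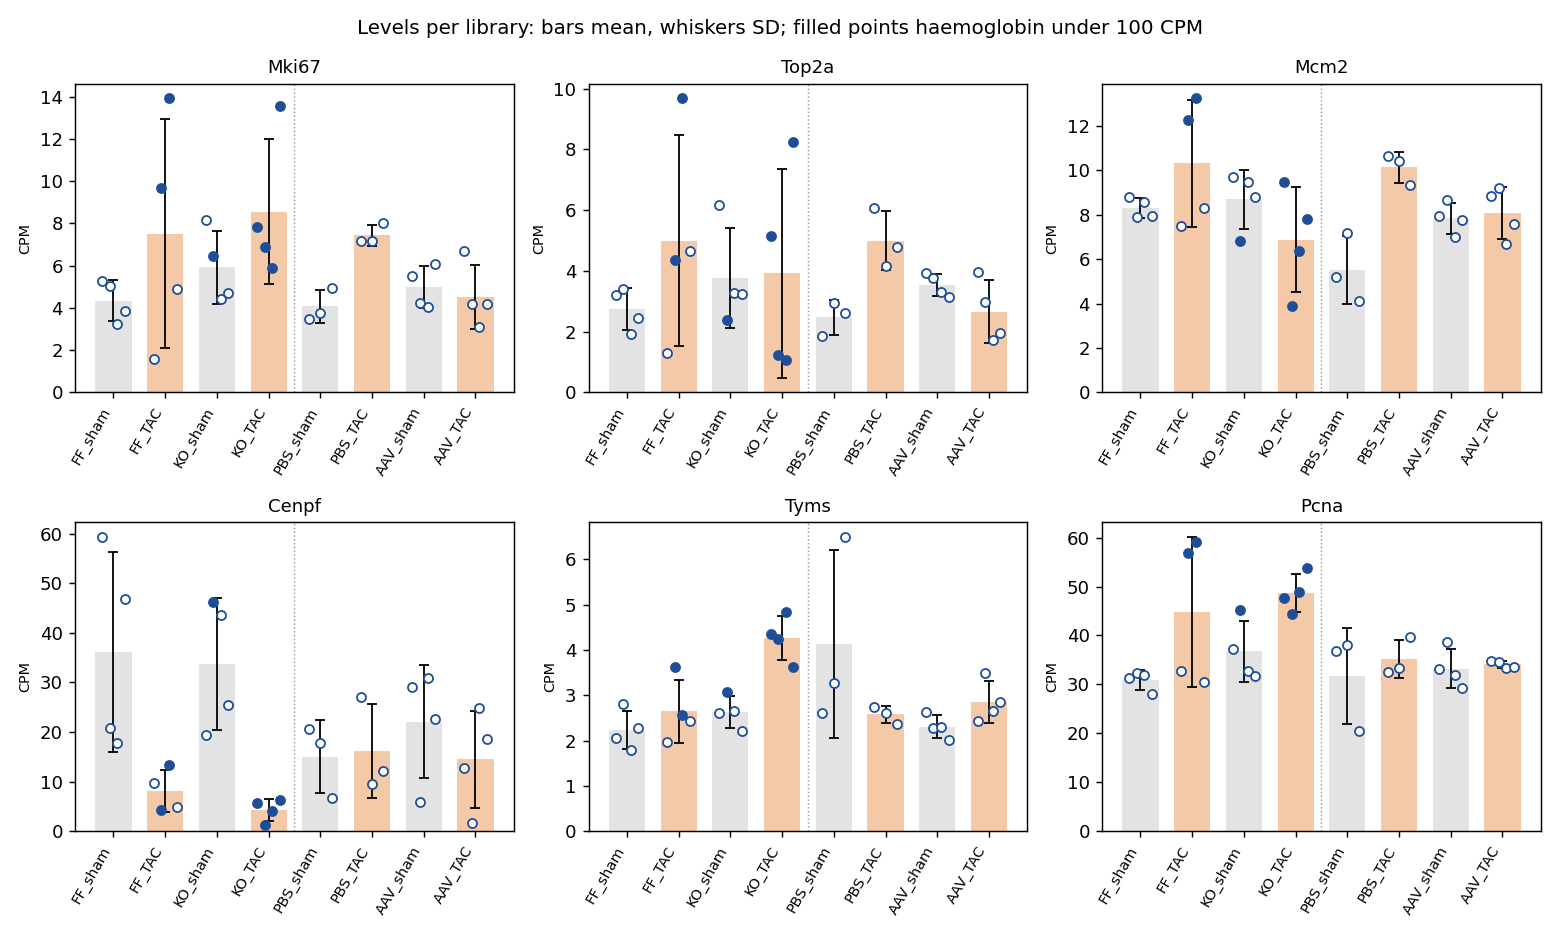
Levels in CPM of Mki67, Top2a, Cenpf, Tyms, Pcna and Mcm2 in each of the 30 libraries (points, filled where haemoglobin-low), by group (x axis), with bars for means and whiskers for SDs. Cenpf is lower in every FF_TAC and KO_TAC library than in any FF_sham or KO_sham library, Tyms is higher in every KO_TAC library than in the other libraries of its cohort, and Mki67 spreads most in FF_TAC.

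In the knockout, TAC was associated with large changes across the transcriptome, and few of them were in these genes. Of the 35, 2 passed the test between KO_TAC and KO_sham, while 25.8% of all genes did (14.3% higher, 11.5% lower). The share among the proliferation genes was therefore below that of all genes in the main fit. With a term for low haemoglobin, 1 of the 35 was called, Cenpf, beside 277 of all 15596 genes (1.78%). The share was not below that of all genes there. Most of the 35 had low counts, and the part of low counts in this share was not tested. The median log2 fold change of the 35 was -0.08, with 15 estimates above and 20 below 0, and the median of all genes was 0.02. Tyms rose and Cenpf fell, and these 2 were also the only genes whose groups did not overlap (9.85% of all genes were higher and 13.2% lower without overlap). At an unadjusted p under 0.05, Pcna and Tyms were higher (21.7% of all genes) and Plk1 and Cenpf lower (18.7%). Limma with sample weights called 13 of the 35, 2 higher and 11 lower, among 8336 calls over all genes (53.4%).

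Cenpf (ENSMUSG00000026605, GRCm38 chromosome 1, 189640606 to 189688086) had 19.5, 46.3, 43.6 and 25.5 CPM in KO_sham and 5.59, 1.29, 4.10 and 6.36 CPM in KO_TAC. Every KO_TAC library lay below every KO_sham library, with means of 33.7 ± 13.2 and 4.34 ± 2.23 CPM (SD, n = 4 each). The log2 fold change was -2.92 (SE 0.53, edgeR adjusted p = 0.0029), and it stayed called when each library was left out in turn, at -3.15 to -2.64. Without the haemoglobin-low KO_sham 2 it was -2.72 (adjusted p = 0.0072), and with a term for low haemoglobin -3.25 (adjusted p = 0.023). In the floxed mice, FF_sham had 59.3, 20.8, 17.8 and 46.8 CPM and FF_TAC 9.64, 4.35, 13.4 and 4.88 CPM, which also did not overlap. That difference was -2.16 (SE 0.51), with an adjusted p of 0.36 by edgeR and 0.0029 by DESeq2. The kinetochore kinesin gene Cenpe had log2 fold changes with TAC of 0.67 in the floxed mice and -0.16 in the knockout, neither past the test. The interaction of TAC with the knockout for Cenpf was -0.75 (SE 0.70, adjusted p = 0.66).

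In sham hearts Cenpf was also the more abundant transcript. Per kilobase of exon, the FF_sham means were 2.34 CPM for Cenpf, 0.43 for Mki67 and 0.30 for Top2a. Cenpf has no annotated exon shared with another gene. In the second cohort it did not separate TAC from sham: 20.5, 17.8 and 6.71 CPM in PBS_sham, 27.0, 9.50 and 12.1 CPM in PBS_TAC, 28.98, 5.86, 30.9 and 22.7 CPM in AAV_sham, and 12.8, 1.75, 24.8 and 18.5 CPM in AAV_TAC. The log2 fold changes with TAC were 0.10 with saline and -0.62 with the vector, and neither passed the test.

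Tyms (ENSMUSG00000025747, chromosome 5, 30058202 to 30073617), which encodes thymidylate synthase, the enzyme that makes thymidylate for DNA synthesis, had 2.61, 3.06, 2.64 and 2.21 CPM in KO_sham and 4.34, 4.23, 4.83 and 3.63 CPM in KO_TAC. The groups did not overlap, at 2.63 ± 0.35 and 4.26 ± 0.49 CPM (SD, n = 4 each). The log2 fold change was 0.73 (SE 0.21, edgeR adjusted p = 0.020). The call was lost without KO_sham 3 (adjusted p = 0.050), KO_sham 4 (0.064) or KO_TAC 3 (0.065), and with a term for low haemoglobin (0.42, adjusted p = 0.34). Without KO_sham 2 it held (0.81, adjusted p = 0.024). None of the other S phase genes passed the test. Their estimates ran from -0.30 for Mcm2 to 0.59 for Ccne1, and Pcna had 0.44 (SE 0.19, adjusted p = 0.097). Whether they differed from Tyms was not tested.

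Mki67 had 8.15, 6.44, 4.42 and 4.70 CPM in KO_sham and 7.83, 6.89, 5.90 and 13.6 CPM in KO_TAC, a log2 fold change of 0.56 (SE 0.46) that did not pass the test. Top2a had 6.16, 2.39, 3.29 and 3.24 CPM in KO_sham and 5.14, 1.22, 1.07 and 8.23 CPM in KO_TAC. KO_TAC fell into a high and a low pair for Top2a, with libraries 1 and 4 above and libraries 2 and 3 below most KO_sham libraries. The same pairs recurred for other genes: Prc1, a microtubule bundler of the central spindle, had 2.79 and 3.15 CPM in KO_TAC 1 and 4 and 0.36 and 0.39 CPM in KO_TAC 2 and 3, and Ccna2, cyclin A2, had 2.20 and 2.06 against 0.36 and 0.22 CPM. Mki67 had the same order, but its low pair lay above every FF_sham library, while the low pair of Top2a lay below every FF_sham library. KO_TAC 2 was the lowest library of its cohort for 10 of the 35 genes and KO_TAC 3 for 12.

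Markers of other cells moved in this comparison too. The summed level of 9 fibroblast genes was 2379 to 2975 CPM in KO_TAC and 1283 to 1985 CPM in KO_sham. Of the 9, 4 were called higher (14.3% of all genes), and the median log2 fold change of the 9 was 0.22. The sum of 8 endothelial genes was 680.4 to 866.6 against 882.7 to 1170 CPM. Of the 8, 5 were called lower (11.5% of all genes). Sums of 8 smooth muscle and pericyte genes were 687.9 to 1038 against 1089 to 1356 CPM, and 2 of the 8 were called lower. Of 10 cardiomyocyte genes, 3 were called lower and 1 higher. The sum of 4 atrial genes (Myl7, Myl4, Sln and Nppa) was 4578 to 17450 against 109.9 to 3182 CPM. Only 1 of the 4 was called higher (14.3% of all genes), and whether the sum reflects atrial tissue was not tested. Sums of 9 macrophage genes overlapped, at 474.4 to 578.8 and 347.7 to 701.9 CPM. No defining marker of these lists was at 0. Their part in the results for Cenpf and Tyms was not tested.

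Between knockout and floxed hearts after sham surgery, 33 of the 35 estimates were above 0, with a median of 0.22 (0.00 over all genes). None passed the edgeR test, as for 0% of all genes. None had an unadjusted p under 0.05 (2.69% of all genes were higher and 2.43% lower) or groups that did not overlap (3.26% and 3.21%), and neither DESeq2 nor limma called any. The highest estimate was 0.79 (SE 0.48, adjusted p = 0.9997) for the mitotic kinase gene Plk1, which had 0.44, 0.56, 0.46 and 0.88 CPM in FF_sham and 1.09, 0.61, 0.92 and 1.46 CPM in KO_sham. Cdca8 had 0.64, Ccnb1 0.50, Mki67 0.45 and Top2a 0.46. KO_sham 1 lay above the cohort median for 33 of the 35 genes, and the other KO_sham libraries for 11 to 17. Without KO_sham 1 the median was 0.07. All 9 macrophage genes were higher in KO_sham at an unadjusted p under 0.05 (2.69% of all genes), and none passed the adjusted test. Their sum was 701.9 CPM in KO_sham 1 and 347.7, 504.1 and 451.1 CPM in KO_sham 2, 3 and 4. In FF_sham it was 237.3 to 348.6 CPM. The part of these cell markers in the median was not tested.

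Between KO_TAC and FF_TAC, 31 of the 35 estimates were below 0, with a median of -0.43 (0.04 over all genes). A single gene, Tyms, passed the test and was higher in KO_TAC, while 14.3% of all genes passed (7.53% higher, 6.80% lower). Tyms had 1.97, 3.62, 2.56 and 2.44 CPM in FF_TAC, and KO_TAC lay above these in every library (as for 6.05% of all genes), though KO_TAC 4, at 3.63 CPM, exceeded FF_TAC 2 by little (log2 fold change 0.72, SE 0.21, adjusted p = 0.031). The KO_TAC libraries are the same as in the comparison with KO_sham, so the 2 results for Tyms share their data. Its call was lost without FF_TAC 1, 3 or 4 or without KO_TAC 2 or 3 (adjusted p from 0.061 to 0.10). It was also lost without a count filter (0.70, adjusted p = 0.10) and among haemoglobin-low libraries (0.46, adjusted p = 0.64). A term for low haemoglobin left 0.52 (adjusted p = 0.14).

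The lower estimates were found in each group of mitotic genes. All 4 cyclin and CDK genes, all 5 of the checkpoint and the anaphase-promoting complex, all 5 of the kinases and the passenger complex and all 8 of the spindle and cytokinesis were below 0, with medians of -0.90, -0.43, -0.78 and -0.61. Of the 9 S phase genes 6 were below 0, with a median of -0.01. None of these negative estimates passed the adjusted test, and 3 of the 35 were lower at an unadjusted p under 0.05 (14.2% of all genes), Mcm2, Cdc20 and Birc5, while Tyms was the only one higher (16.8%). The only one with separate groups was Birc5 (survivin, of the passenger complex), at 1.18, 1.10, 1.75 and 1.36 CPM in FF_TAC and 1.05, 0.50, 0.45 and 0.85 CPM in KO_TAC (-0.87, SE 0.34, adjusted p = 0.098; 7.40% of all genes were lower without overlap). Mki67 was at 0.21 and Top2a at -0.32.

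Limma with sample weights called 11 of the 35, Tyms higher and 10 others lower, among 6002 calls over all genes (38.5%). The medians depended on single libraries. Without FF_TAC 3 the median was -0.05 (15 estimates above and 20 below 0), without KO_TAC 4 it was -0.82, and with haemoglobin-low libraries only it was -0.89. In the fit without FF_TAC 2, FF_TAC 3 and KO_sham 2 the median was 0.30 with 24 estimates above 0. Mki67 (1.43, adjusted p = 0.043), Pcna and Tyms were then called higher in KO_TAC, among 22.4% of all genes called. That setting compares KO_TAC with FF_TAC libraries rich in haemoglobin transcripts, so that group and haemoglobin cannot be told apart in it.

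The interaction, which asks whether the response to TAC differed between knockout and floxed mice, gave a median of -0.73 and estimates below 0 for 33 of the 35 genes. None passed the edgeR test (0.0449% of all genes did) and 1, Plk1, was lower at an unadjusted p under 0.05 (6.60% of all genes were higher and 6.49% lower). Plk1 was at -1.73 (SE 0.70, adjusted p = 0.30), Ccnb1 at -1.73 (SE 1.19, adjusted p = 0.55) and Rrm2 at -1.42 (SE 0.82, adjusted p = 0.47). DESeq2 called none (2.42% of all genes) and limma with sample weights called 5 (18.8% of all genes). Without FF_TAC 2, FF_TAC 3 and KO_sham 2 the median was 0.01. A different response of proliferation genes in the knockout was therefore not shown in these libraries.

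**Figure D4:**
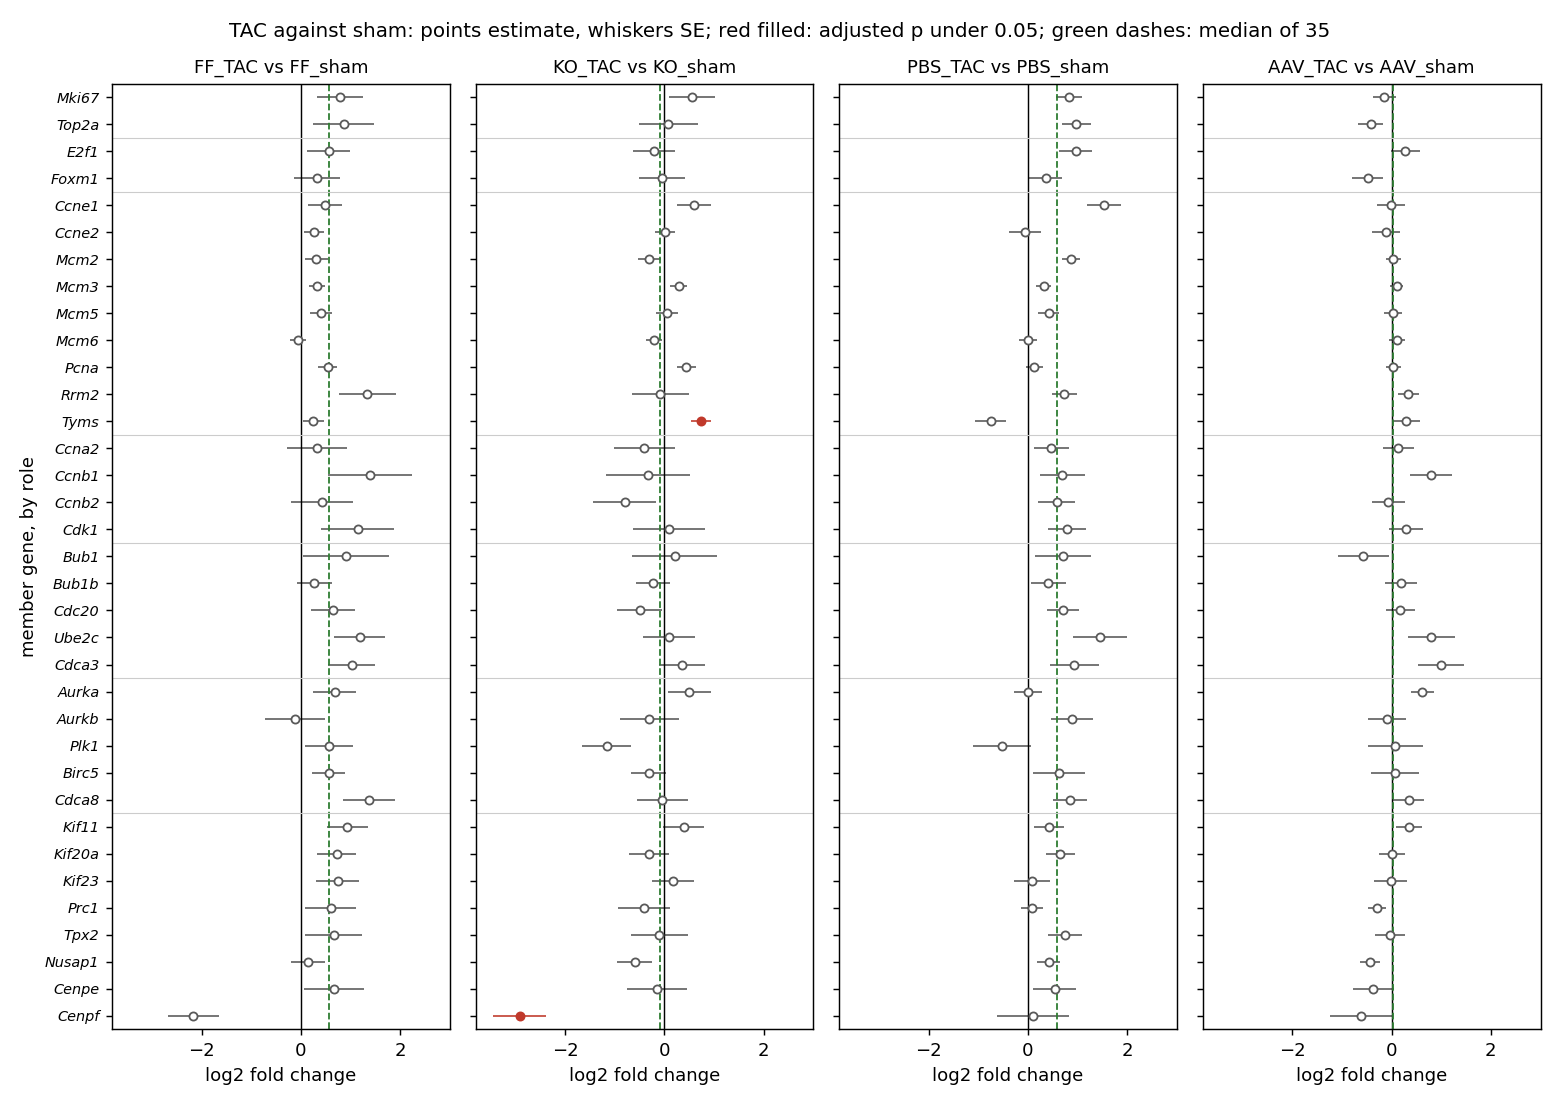
Log2 fold change of each of the 35 genes (rows) between TAC and sham in the 4 kinds of mice (panels), with bars of 1 SE, called genes in red and the median over the 35 genes as a green line. The medians are 0.57 in floxed mice, -0.08 in knockouts, 0.58 with saline and 0.04 with the vector, and only Cenpf and Tyms in the knockout are called.

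In C57Bl/6 mice given saline, TAC hearts again had higher estimates for most of the genes: 32 of 35 were above 0, with a median of 0.58 (-0.02 over all genes). None passed the edgeR test, as did 0.0318% of all genes. At an unadjusted p under 0.05, 10 were higher (6.46% of all genes) and 1 lower (12.0% of all genes), and DESeq2 called 2, Ccne1 and Mcm2, among 370 of all genes. Without overlap, 16 of the 35 genes were higher in all 3 PBS_TAC libraries than in any PBS_sham library, as were 8.72% of all genes, and none was lower without overlap (6.28% of all genes).

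Mki67 had 3.48, 3.77 and 4.965 CPM in PBS_sham and 7.155, 7.17 and 8.02 CPM in PBS_TAC (4.07 ± 0.79 and 7.45 ± 0.50 CPM, SD, n = 3 each). The log2 fold change was 0.82 (SE 0.26, edgeR adjusted p = 0.18). Top2a had 1.85, 2.95 and 2.61 CPM in PBS_sham and 6.07, 4.15 and 4.77 CPM in PBS_TAC (0.97, SE 0.29, adjusted p = 0.17). For both markers the lowest TAC library was above the highest sham library. In the floxed mice the corresponding values were 0.79 (SE 0.47) and 0.86 (SE 0.61). Without PBS_sham 3, Mki67 was at 1.04 (adjusted p = 0.10) and Top2a at 1.06 (adjusted p = 0.17), and the median over the 35 genes was 0.73.

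Among the S phase genes of these mice, Ccne1, cyclin E1 of the G1 to S transition, had 0.49, 0.87 and 0.51 CPM in PBS_sham and 1.77, 1.71 and 2.04 CPM in PBS_TAC (1.53, SE 0.34, adjusted p = 0.11 by edgeR and 0.0099 by DESeq2). Mcm2, a subunit of the replicative helicase, had 5.21, 7.16 and 4.13 CPM in PBS_sham and 10.7, 10.4 and 9.33 CPM in PBS_TAC (0.86, SE 0.18, adjusted p = 0.11). Mcm3, Mcm5 and Rrm2 also had groups that did not overlap, while Mcm6 and Ccne2 were at 0.00 and -0.06. Tyms was at -0.75 (SE 0.31, adjusted p = 0.23). It stood at 6.49 CPM in PBS_sham 3, the library low in cardiomyocyte transcripts, and 2.36 to 3.28 CPM in the other 5 libraries.

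Of the genes of mitosis, Ccna2, Cdk1, Cdc20, Ube2c, Cdca3, Cdca8, Kif20a, Tpx2 and Nusap1 had PBS_TAC above PBS_sham in every library. Ube2c had 0.71, 0.33 and 0.83 CPM in PBS_sham and 2.23, 0.91 and 2.25 CPM in PBS_TAC (1.45, SE 0.55, adjusted p = 0.21). Of these 9, Ccna2, Cdc20, Ube2c, Cdca8, Kif20a and Nusap1 have uncertain counts. Plk1 was at -0.53, with 2.32 CPM in PBS_sham 3. Markers of some other cells were lower in PBS_TAC at an unadjusted p under 0.05 (12.0% of all genes). These were 5 of 5 adipocyte genes (summed level 16.6 to 388.4 CPM in PBS_sham, 0.23 to 46.4 CPM in PBS_TAC), 5 of 5 mesothelial genes (11.9 to 291.5 and 7.21 to 34.4 CPM) and 4 of 5 tested lymphocyte genes (3.10 to 28.5 and 3.41 to 5.32 CPM). In each of these lists PBS_sham 2 had the highest sum, and for lymphocyte genes the other PBS_sham libraries had 3.10 and 4.02 CPM. Of 8 smooth muscle and pericyte genes (941.4 to 2306 and 981.3 to 1119 CPM, the highest in PBS_sham 3), 4 were lower and 1 was higher (6.46% of all genes were higher). None of them passed the adjusted test, none was at 0 throughout a group, and their part in the results was not tested. Without PBS_sham 1 the median over the 35 genes was 0.38, and Ccne1, Mcm2 and Rrm2 were called higher and Tyms lower, 4 of the 35 beside 1789 of all 16209 genes tested.

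With the vector, the same contrast gave a median of 0.04 (0.00 over all genes), with 21 estimates above and 14 below 0. None of the 35 genes passed the edgeR test (0.00635% of all genes did), 1 was higher at an unadjusted p under 0.05 (3.36% of all genes) and none lower (3.65%), and DESeq2 and limma called none. Mki67 had 5.52, 4.25, 4.065 and 6.09 CPM in AAV_sham and 6.69, 4.17, 3.09 and 4.17 CPM in AAV_TAC (-0.14). Top2a had 3.93, 3.77, 3.32 and 3.14 CPM in AAV_sham and 3.96, 2.99, 1.73 and 1.94 CPM in AAV_TAC (-0.42). The groups overlapped for both. The highest estimates were those of Cdca3 (1.002, SE 0.47), Ube2c (0.80) and Ccnb1 (0.79), none past the test. Only the Aurora kinase gene Aurka was higher without overlap (0.62, adjusted p = 0.56; 5.25% of all genes) and only Nusap1, a spindle microtubule protein gene, lower (-0.44, adjusted p = 0.71; 5.35% of all genes).

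After TAC, 32 of the 35 genes had lower estimates with the vector than with saline (median -0.43, -0.01 over all genes). None was higher at an unadjusted p under 0.05 (1.23% of all genes) or without overlap (4.08%). None passed the edgeR test (0.0381% of all genes did), 9 were lower at an unadjusted p under 0.05 (1.98% of all genes), and 7 were lower without overlap (4.36% of all genes). DESeq2 called none and limma with sample weights called 2, Top2a and Nusap1. The 7 were Mki67 (-0.71, SE 0.24, adjusted p = 1), Top2a (-0.91, SE 0.27, adjusted p = 0.94), Foxm1, Mcm2, Mcm5, Nusap1 and Cenpe. Foxm1, whose product drives the mitotic genes, had 2.23, 1.37 and 1.73 CPM in PBS_TAC and 1.19, 0.96, 0.68 and 0.85 CPM in AAV_TAC (-0.94, SE 0.32). Cenpe had 1.37, 1.48 and 1.42 CPM in PBS_TAC and 1.09, 0.79, 0.37 and 0.38 CPM in AAV_TAC (-1.10, SE 0.42, adjusted p = 1). All 8 genes of the spindle and cytokinesis were below 0, with a median of -0.53, while Tyms, Rrm2 and Aurka were above 0.

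After sham surgery the vector and saline groups had a median of 0.00 (-0.03 over all genes), with 18 estimates above and 17 below 0. None passed the edgeR test (0.0127% of all genes did), 2 were higher (5.84% of all genes) and 1 lower (14.8%) at an unadjusted p under 0.05, and DESeq2 called 1, Ccne1, at an adjusted p of 0.044, among 373 of all genes. Ccne1 had 1.74, 1.26, 1.55 and 1.36 CPM in AAV_sham, above every PBS_sham library (1.22, SE 0.32, edgeR adjusted p = 0.13). Top2a, too, was higher in every AAV_sham than PBS_sham library (0.48), and Aurka was lower (-0.46). Of all genes 5.20% were higher and 5.54% lower without overlap. Plk1 was at -1.10 and Tyms at -0.90 (adjusted p = 0.16), and both had their highest level in PBS_sham 3. Without that library they were at -0.38 and -0.34, Ccne1 was at 1.12 (adjusted p = 0.30) and the median was 0.19. The PBS_sham libraries serve both this comparison and that of TAC with sham, and the Ccne1 values in both rest on the same 3 low libraries.

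The interaction of TAC with the vector had a median of -0.50, with 29 of 35 estimates below 0. None passed the edgeR test (0.00635% of all genes did), while 5 were lower (2.35% of all genes) and 1, Tyms, higher (4.55%) at an unadjusted p under 0.05. Ccne1 was at -1.54 (SE 0.43), Top2a at -1.39 (SE 0.39), Mki67 at -0.96 (SE 0.35) and Mcm2 at -0.82 (SE 0.24), each with an adjusted p of 0.69, and Bub1 at -1.27 (SE 0.77). DESeq2 and limma called none. A difference in the TAC response between vector and saline was thus not shown after adjustment.

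**Figure D5:**
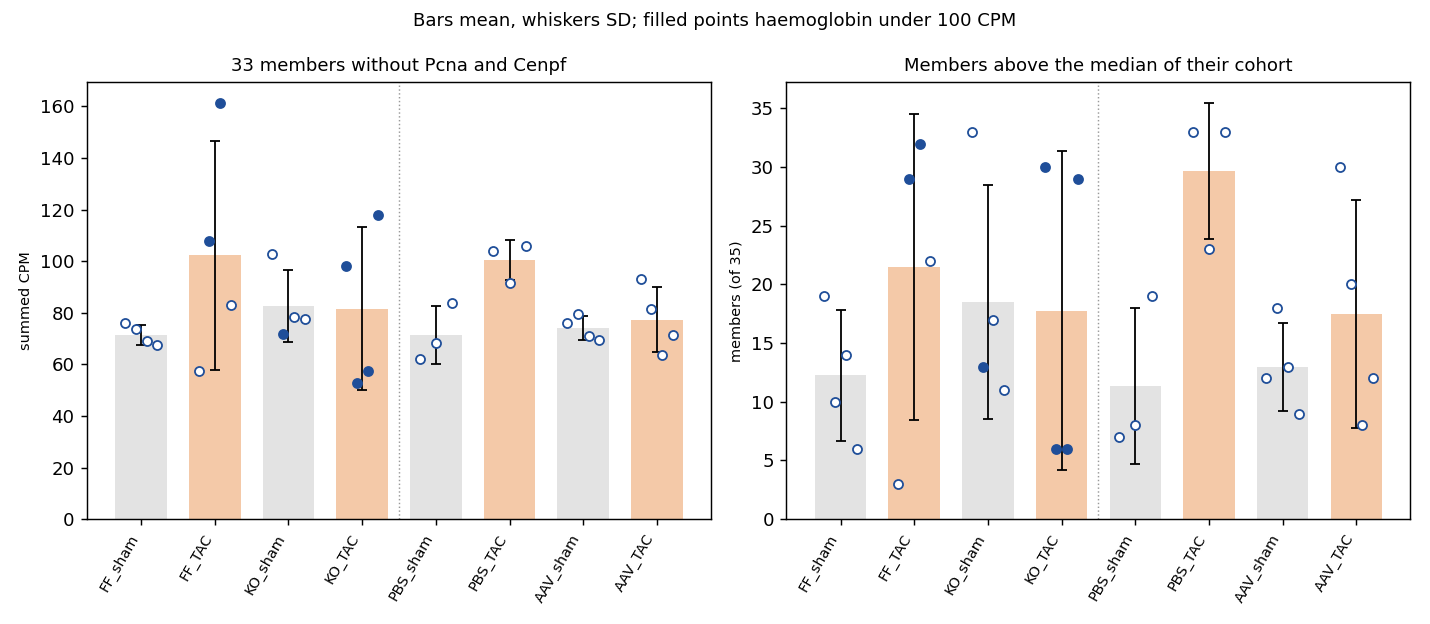
Summed level in CPM of 33 of the genes, without the abundant Pcna and Cenpf (left), and number of the 35 genes above the median of their cohort (right), for each library (points) by group. Bars are means, whiskers SDs, and filled points the haemoglobin-low libraries. The PBS_TAC libraries, at 91.7 to 105.9 CPM, lie above all PBS_sham and AAV_sham libraries, while FF_TAC spans 57.3 to 161.3 CPM.

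The summed level of 33 of the genes, leaving out Pcna and Cenpf, shows how evenly the hearts of a group behaved. It was 71.5 ± 3.91 CPM in FF_sham, 82.7 ± 13.8 in KO_sham, 102.4 ± 44.4 in FF_TAC and 81.6 ± 31.6 in KO_TAC (SD, n = 4 each). In the second cohort it was 71.3 ± 11.2 in PBS_sham and 100.5 ± 7.72 in PBS_TAC (n = 3 each), 74.0 ± 4.74 in AAV_sham and 77.4 ± 12.7 in AAV_TAC (n = 4 each). The TAC groups of the first cohort held the widest spread. In FF_TAC the libraries labelled 2 and 3, at 108.0 and 161.3 CPM, are haemoglobin-low, and libraries 1 and 4 had 57.3 and 83.0 CPM. In KO_TAC all 4 are haemoglobin-low and ran from 52.9 to 117.9 CPM, so that haemoglobin-low libraries held both the highest and the lowest sums of the cohort.

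Pcna was the only one of the 35 genes whose level separated the 7 haemoglobin-low libraries from the other 9 of the first cohort, at 44.4 to 59.2 CPM against 27.9 to 37.3 CPM (3.67% of all genes were higher and 2.40% lower without overlap). Its product is the clamp of the replicative polymerases and also acts in DNA repair. The library labelled KO_sham 2, at 45.3 CPM, lay within the range of KO_TAC (44.4 to 53.8 CPM). Those labelled FF_TAC 2 and FF_TAC 3, at 56.8 and 59.2 CPM, lay above every KO_TAC library. FF_TAC 1 and 4, at 32.7 and 30.5 CPM, lay with the other sham libraries. Pcna did not pass the edgeR test between any groups, with 0.54 (SE 0.19, adjusted p = 0.37) in FF_TAC against FF_sham. Genes outside the 35 that separated the same libraries included Cdkn1a, which encodes the CDK inhibitor p21, at 54.1 to 272.3 against 15.7 to 29.5 CPM, and Myc, at 39.5 to 85.2 against 1.69 to 5.05 CPM.

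Other genes of the cell cycle were compared in 5 lists. Between KO_TAC and KO_sham, of 27 tested genes of DNA replication 1 fell, Pole, the catalytic subunit of polymerase epsilon (-0.67, SE 0.21, adjusted p = 0.030). Of 44 tested genes of mitosis and chromosome structure 4 rose, Zwint (0.46), the condensin gene Smc4 (0.66), Cks2 (1.52) and the centromeric histone gene Cenpa (0.59), with a list median of -0.18. Smc4 also separated the haemoglobin-low libraries from the others of the cohort, at 27.95 to 45.62 against 16.65 to 25.58 CPM. The part of that split in its change was not tested. Of 13 tested transcription regulators of the cycle 1 fell, Rbl2 (-0.60), which encodes the pocket protein p130. All 3 shares were below the 25.8% of all genes, and the part of low counts in them was not tested.

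The lists of G1 and of arrest genes had 3 of 9 and 8 of 10 genes called, beside 25.8% of all genes. Of 9 tested G1 genes (cyclins, CDKs, Cdc25a, Myc and Mycn), Ccnd2 rose and Cdk2 and Mycn fell. Ccnd2, cyclin D2, stood at 126.9 ± 23.5 CPM after sham surgery and 252 ± 56.8 CPM after TAC (SD, n = 4 each). Its log2 fold change was 1.04 (SE 0.22, adjusted p = 0.0059). Of 10 tested CDK inhibitor and arrest genes 5 rose and 3 fell. Cdkn2b, which encodes the CDK4 and CDK6 inhibitor p15, rose by 2.62 (SE 0.48, adjusted p = 0.0026) and Cdkn1a by 2.76 (SE 0.69, adjusted p = 0.013) on the log2 scale, while Cdkn1b, which encodes p27, fell by 0.53. Of these 10 genes, 4 also separated the haemoglobin-low libraries from the others without overlap, Cdkn1a among them, and the part of that split in the values was not tested.

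Between KO_TAC and FF_TAC, where 14.3% of all genes passed, Pole was lower (-0.93, adjusted p = 0.0088), as was the kinetochore gene Spc24 (-1.17, SE 0.25, adjusted p = 0.0065). Zwint (0.40) and Smc4 (0.64, a gene that separated the haemoglobin-low libraries) were higher. Cdk6 was higher (0.82, adjusted p = 0.011) and Mycn lower (-1.10, adjusted p = 0.040), and of the arrest genes Cdkn2b was higher (1.60, adjusted p = 0.027) and Ccng1 and Cdkn1c lower. In the other comparisons no gene of these 5 lists passed the test. The 44 genes of mitosis had medians of 0.52 in FF_TAC against FF_sham and 0.39 in PBS_TAC against PBS_sham, where 7 and 15 were higher at an unadjusted p under 0.05 (6.64% and 6.46% of all genes), and of -0.03 in AAV_TAC against AAV_sham, where 1 was (3.36% of all genes).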

How the data were processed

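RNA of 30 flash-frozen mouse hearts (integrity number above 7) was poly(A) selected and made into libraries with a directional kit and sequenced paired-end, per the labels' protocols. The deposited values are whole-number counts per Ensembl gene and library. The submitters' processing notes name HISAT2 2.1.0, featureCounts, Subread 1.5.1 and GRCm38, and the strand setting and annotation release are not given in the sources used here. Symbols, exons and coordinates came from GENCODE M21, and 260 identifiers without a symbol held 0.00336% of counts. Groups came from the genotype and treatment labels. KO_TAC titles contain both words, TAC and sham, so the treatment label and column name were used.

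Each cohort was fitted alone with edgeR 4.0.16 in R 4.3.3 (TMM, filterByExpr, robust quasi-likelihood F test, Benjamini-Hochberg over all 15596 or 15745 tested genes, threshold 0.05), giving 10 comparisons. Levels are CPM on TMM-scaled library sizes over all 30 libraries. DESeq2 1.42.0, limma 3.58.1 with sample weights, other filters and scalings, a haemoglobin term (limit 100 CPM) and omission of each library were the alternatives, and the settings that leave out haemoglobin-low libraries were added after the data were seen. The fit was tested on simulated data. The genes, lists and tests were chosen with earlier results of these data known. Genes were named by a rule: Mki67 and Top2a, called genes, and the largest estimates per comparison, with up to 4 of the smallest adjusted p per list. Cdkn1a, Myc and other genes given for the haemoglobin split, and genes described for single libraries, were chosen after their values were seen. Promoter windows came from RefSeq (GRCm38.p6).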

Additional observations from a re-analysis of the deposited data

Results flagged for a closer look

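Within groups of 4 libraries, a single library lay far from the other 3 in 11 of 210 combinations of gene and group, and chance alone would mark about 1 in 20. In FF_sham these were E2f1 in library 1 (2.126 CPM, others 1.566 to 1.577), Ccnb2 in library 2 (0.728, others 1.044 to 1.072) and Cdca8 in library 4 (0.4414, others 0.7505 to 0.784). In FF_TAC it was Bub1b in library 1 (0.7891, others 2.044 to 2.145). In KO_sham they were Mcm6 in library 4 (11.93, others 9.686 to 9.865) and, both in library 1, Ccna2 (2.653, others 1.294 to 1.349) and Birc5 (1.563, others 0.6475 to 0.7356). In AAV_sham they were Mcm6 in library 4 (7.159, others 9.344 to 9.575), Bub1b in library 2 (2.573, others 1.243 to 1.302) and Kif20a in library 1 (1.342, others 1.915 to 2.004). In AAV_TAC it was Bub1 in library 1 (0.6438, others 0.1422 to 0.2253).

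Nusap1 had estimates of opposite sign with TAC in the second cohort, without overlap in either arm, and passed the test in neither. Its log2 fold change was 0.4198 with saline (edgeR adjusted p = 0.33) and -0.4391 with the vector (adjusted p = 0.71). The interaction was -0.86 (SE 0.31, edgeR adjusted p = 0.69), which did not pass the test, and that no library overlapped was not itself tested.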

How the results depend on the processing

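Counts of the 35 genes called are given here, after the main count in brackets. DESeq2 called 1 [0] in FF_TAC against FF_sham, 2 [0] in PBS_TAC against PBS_sham and 1 [0] in AAV_sham against PBS_sham, with 168, 370 and 373 calls over all genes (0, 5 and 2 by edgeR). Limma with sample weights called 13 [2] in KO_TAC against KO_sham (2 higher, 11 lower), 11 [1] in KO_TAC against FF_TAC (1 higher, 10 lower), 5 [0] in the knockout interaction and 2 [0] in AAV_TAC against PBS_TAC, with 8336, 6002, 2930 and 97 calls over all genes (4018, 2236, 7 and 6 by edgeR). Without a count filter, KO_TAC against KO_sham had 1 [2], with 8.78% of all genes called, and KO_TAC against FF_TAC 0 [1], with 4.87%. With the haemoglobin term these comparisons had 1 [2] (1.78% of all genes) and 0 [1] (7.25%). In the main fit 25.8% and 14.3% of all genes were called. KO_TAC against FF_TAC also had 0 [1] among haemoglobin-low libraries and 3 [1] without FF_TAC 2, FF_TAC 3 and KO_sham 2. Leaving out each library gave 1 to 3 in KO_TAC against KO_sham (3 without KO_TAC 1), 0 to 4 in KO_TAC against FF_TAC (4 without KO_TAC 1), 0 to 4 in PBS_TAC against PBS_sham and 0 to 1 in AAV_sham against PBS_sham (1, Tyms, without PBS_sham 1). Calls over all genes moved as well. In KO_TAC against FF_TAC they were 7.06% without FF_TAC 4 and 17.6% without FF_TAC 2. The cause of these shifts was not tested.

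Directions turned only for Mki67, Top2a and Ccnb1 among the genes named. Top2a in KO_TAC against KO_sham [0.08] was -1.24 by limma, -0.02 with the replicate block, -0.33 with the haemoglobin term, -0.08 without the 3 haemoglobin-low libraries of mixed groups, and -0.56 to 0.42 over single omissions. Mki67 in that comparison [0.56] was -0.39 with the haemoglobin term. In KO_TAC against FF_TAC, Mki67 [0.21] was -0.16 with the haemoglobin term, -0.47 among haemoglobin-low libraries and -0.13 to 0.69 over single omissions, and Top2a [-0.32] was 0.42 without the mixed-group libraries and -0.96 to 0.21 over omissions. In FF_TAC against FF_sham, Mki67 [0.79] was -0.04 with the haemoglobin term and -0.43 with only haemoglobin-rich libraries in either fit, and Ccnb1 [1.39] was -0.42 and -0.43 in those. Mki67 in the knockout interaction [-0.23] was 0.07 by limma, 1.03 without the mixed-group libraries and -0.57 to 0.25 over omissions.

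The replicate number was tried as a replicate block. For libraries of the same number, deviations from the group means correlated across genes at -0.41 to 0.45. The signs were mixed, so a pairing by number was not shown. So few libraries per group cannot settle whether there was one. With the block, 2 and 1 of the genes were called in the comparisons of KO_TAC with KO_sham and FF_TAC, as without it. The median over the 35 genes in KO_TAC against KO_sham (-0.08) was -0.52 by limma (8 estimates above 0, 27 below) and -0.58 with the haemoglobin term (4 above, 31 below). Over single omissions it ran from -0.39 to 0.12, and that of AAV_sham against PBS_sham (0.00) ran from -0.12 to 0.19. Mean counts of the 35 genes started at 8.13, and what size of difference this depth could show was not tested for them.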
